A study of Mus musculus with 12 samples.

Results

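Arpc2, Clk1, Xrcc5, Tuba4a and Atic are 5 genes in or near Idd5, a stretch of mouse chromosome 1 that carries variants for autoimmune diabetes in NOD mice. They were taken as every probe named with exactly 1 of these symbols, which gave 7 of the 20736 probes and 5 of the 8708 named genes on the arrays. Arpc2 and Clk1 each had 2 probes and the other genes 1 probe each. The genes were chosen with their values on these arrays in view, so their own values are given as a description and without a test. The costimulatory receptors of the region were left out of the set.

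The series holds 12 arrays of 2 colours in 6 groups of 2, and every array set RNA of an experimental mouse against RNA of the same tissue from B6 mice. The groups are spleen T cells of NOD mice, of NOD.H2h4 mice, which are NOD mice with the H2h4 haplotype of the major histocompatibility complex, and of B6.NODIdd1,5 mice, which are congenic B6 mice carrying NOD segments at Idd1 and Idd5. Kidney cells of the same congenic strain form a group of their own. Spleen T cells of mice given bone marrow make up the last groups, NODtoB6 with NOD donors and B6 recipients and B6toNOD with B6 donors and NOD recipients. Only the congenic strain isolates Idd5 from most of the NOD genome, and there it comes together with Idd1, so the intervals cannot be told apart. Age, sex, the method of T cell isolation and whether S1 and S2 came from separate mice could not be read from the sources used here. P-values therefore measure the spread between these arrays, which may be technical.

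The products of the 5 genes work in different parts of the cell. Arpc2 is a core subunit of the Arp2/3 complex, which starts branched actin filaments and in T cells helps build the contact with an antigen-presenting cell, while Tuba4a is an alpha-tubulin of microtubules. Clk1 is a kinase that phosphorylates SR splicing factors, Xrcc5 is the larger subunit of the Ku heterodimer that binds broken DNA ends, also during assembly of antigen receptor genes, and Atic is the bifunctional enzyme that completes the synthesis of inosine monophosphate, the first purine nucleotide of the de novo pathway. Along the RefSeq order of chromosome 1 the genes stand as Clk1, Atic, Xrcc5, Arpc2 and Tuba4a. There are 76 protein-coding genes between Clk1 and Atic, 4 between Atic and Xrcc5, 11 between Xrcc5 and Arpc2 and 35 between Arpc2 and Tuba4a.

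The promoters of Arpc2, Tuba4a and Atic are shown because these genes gave values below 0 in congenic T cells and have an entry in the RefSeq promoter table. Each covers 250 bases before and 50 bases after the annotated start, read 5′ to 3′ along the gene in build GRCm38.p6, the reference sequence and not that of NOD. They lie at chr1:74236267-74236566 on the plus strand for Arpc2, chr1:75219245-75219544 on the minus strand for Tuba4a and chr1:71556906-71557205 on the plus strand for Atic. Capitals mark matches on either strand to the GC box GGGCGG or to the ETS core CGGAAG.
Arpc2: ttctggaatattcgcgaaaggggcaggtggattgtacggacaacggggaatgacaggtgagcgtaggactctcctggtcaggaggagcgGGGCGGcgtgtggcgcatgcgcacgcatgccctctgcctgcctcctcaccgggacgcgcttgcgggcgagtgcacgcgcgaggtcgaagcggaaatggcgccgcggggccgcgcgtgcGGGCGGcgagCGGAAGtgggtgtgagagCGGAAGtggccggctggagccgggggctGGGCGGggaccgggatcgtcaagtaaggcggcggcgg
Tuba4a: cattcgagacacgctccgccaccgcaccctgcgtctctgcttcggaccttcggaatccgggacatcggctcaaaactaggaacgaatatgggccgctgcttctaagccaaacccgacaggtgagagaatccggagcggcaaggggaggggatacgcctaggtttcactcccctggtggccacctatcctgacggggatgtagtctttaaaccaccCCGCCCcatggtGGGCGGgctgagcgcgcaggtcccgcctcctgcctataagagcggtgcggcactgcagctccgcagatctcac
Atic: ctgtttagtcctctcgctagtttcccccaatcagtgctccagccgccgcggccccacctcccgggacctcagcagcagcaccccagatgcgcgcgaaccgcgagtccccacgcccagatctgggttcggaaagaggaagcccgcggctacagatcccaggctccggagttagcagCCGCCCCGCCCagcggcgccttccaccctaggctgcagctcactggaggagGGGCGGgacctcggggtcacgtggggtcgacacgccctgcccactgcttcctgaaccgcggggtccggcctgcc
All 3 promoters held the GC box, with 3 matches in Arpc2, 2 in Tuba4a and 3 in Atic, against 35.7% of all 32851 promoters in the table with at least 1 match. Arpc2 alone among them held the ETS core, with 2 matches, against 16.9% of all promoters, and the NRF1 palindrome, against 0.971%. Atic held CCAAT, found in 37.4% of promoters, and the E-box CACGTG, found in 7.15%. TATAAA, present in 13.6% of promoters, was in none of the 3 windows. Their GC content was 70.0% for Arpc2, 62.0% for Tuba4a and 69.7% for Atic, beside a median of 52.7% over all promoters. These are letter matches only, and no factor binding was measured.

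Values are log2 ratios of the experimental sample to B6, centred on the median of each array, so that 0 is the middle feature of the array and 1 is a doubling. The array medians before centring ran from -0.01 to -0.88, and the spread of the features, as a median absolute deviation, from 0.289 to 0.910. Of the 20736 probes, 18837 to 20558 had a value per array, and brightness over background is not known because the data are ratios. Arrays of the same group correlated at Pearson r from 0.505 to 0.760 over features. The labels give the dyes of the strain arrays but not of the NODtoB6 and B6toNOD arrays, so the direction of the marrow transfer values is an assumption. These are bulk samples, in which fewer cells of a type and less RNA per cell cannot be told apart. Of 16 T cell marker genes 4 were on the arrays, and ratios to B6 T cells do not show the level of a marker. In congenic T cells 3 T cell markers could be tested and all 3 fell (Fyn, Cd247 and Ccr7, median -0.85, where 30.3% of all features passed the test), calls that were lost without the first congenic T cell array. Erythroid and myeloid markers were low there too: 5 of 6 erythroid markers fell (median -0.73; 2 without either congenic T cell array), and 3 of 5 myeloid markers fell and 1 rose (median -0.44; 1 passed without the first array). In congenic kidney 2 of 4 T cell markers fell (median -0.83), and the median difference of T cell markers between the tissues was 0.16 over 3 genes. Of 4 kidney markers 2 rose in congenic kidney, with a median of 0.66, where 33.5% of all features passed. The part of these markers in the congenic values was not tested.

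The genes did not move as a block. In congenic T cells the 4 genes with values lay below 0 on both arrays. Of all features there 0.326% were lower than Tuba4a, 0.911% than Atic, 7.91% than Clk1 and 8.94% than Arpc2. Because the genes were chosen with their values in view, this shared direction is not a result about the region. In congenic kidney only Tuba4a was far below 0 and Xrcc5 was above it. In NOD T cells Atic was by far the lowest of the 5, and in B6toNOD T cells Arpc2 was far above 0. Tuba4a was also low in NOD.H2h4 T cells and near 0 in NOD T cells.

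**Figure D1:**
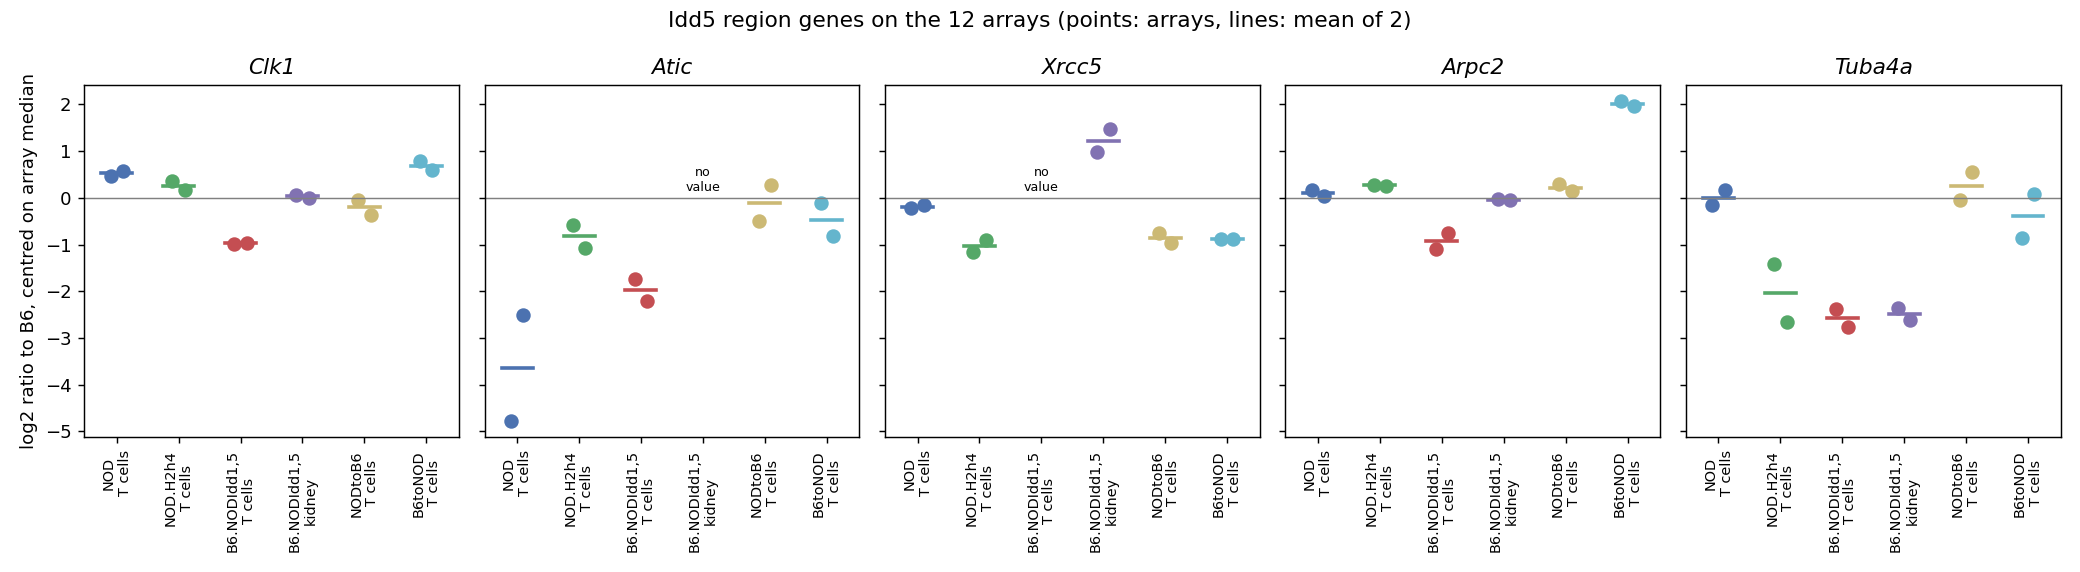
Log2 ratio to B6, centred on the array median (vertical axis), of the 5 genes in the 6 groups (horizontal axis), with 1 point per array and a line at the mean of 2 arrays. Tuba4a lies between -2.38 and -2.77 in congenic T cells and between -2.36 and -2.62 in congenic kidney, and Arpc2 lies at 2.08 and 1.96 in B6toNOD T cells.

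Arpc2, the actin nucleation subunit, read -1.08 and -0.76 on the arrays of congenic T cells, a mean of -0.92 ± 0.09 (SE of the fit, n = 2), or 1.90-fold below B6. In congenic kidney it read -0.03 and -0.05, so the tissue values did not overlap, and T cells minus kidney came to -0.88 ± 0.13 (SE). Of all features in congenic T cells 8.94% were lower than Arpc2. It read 0.16 and 0.04 in NOD T cells, 0.27 and 0.26 in NOD.H2h4 T cells and 0.29 and 0.14 in NODtoB6 T cells. These 3 groups lay close together, and NODtoB6 overlapped both of the others. B6toNOD T cells read 2.08 and 1.96, a mean of 2.02 ± 0.09 (SE), 4.05-fold above B6 and higher than 98.9% of features. The next highest group, NOD.H2h4, lay 1.75 below that mean. All 5 myeloid markers tested also rose in B6toNOD T cells (51.4% of all features passed there), with list means of 3.98 and 3.93 on the 2 arrays and single genes from 1.35 to 6.68. All 5 rose in NODtoB6 T cells too (26.8% of all features), with list means of 2.10 and 1.97, where Arpc2 averaged 0.22. In NOD T cells 4 of the 5 rose (12.2% of all features), where Arpc2 averaged 0.10. The part of these markers in the Arpc2 values was not tested. With arrays as deposited, without centring, the B6toNOD mean of Arpc2 was 1.26, and scaled to a common spread it was 1.27. Without centring the means of NOD (-0.05), NOD.H2h4 (-0.53) and NODtoB6 (-0.01) T cells were below 0. Congenic kidney was then at -0.50, so its value near 0 depended on centring.

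Both Arpc2 probes lay below 0 in congenic T cells and above 0 in B6toNOD T cells, but they differed in size. Probe 16974 read -1.75 and -1.18 in congenic T cells and probe 19698 read -0.42 and -0.34, so that their means of -1.46 and -0.38 differed by 1.08. Among 1751 genes with 2 probes the median difference in that group, regardless of sign, was 0.56 and the 90th percentile 1.83. In B6toNOD T cells the probe means were 2.45 and 1.59, and the median difference between probes of a gene was 0.80 over 1533 genes. In NOD T cells the probe means had opposite signs, 0.30 for probe 16974 and -0.09 for probe 19698. Small values of Arpc2 therefore depended on the probe, while the low congenic T cell value and the high B6toNOD value were read by both.

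**Figure D2:**
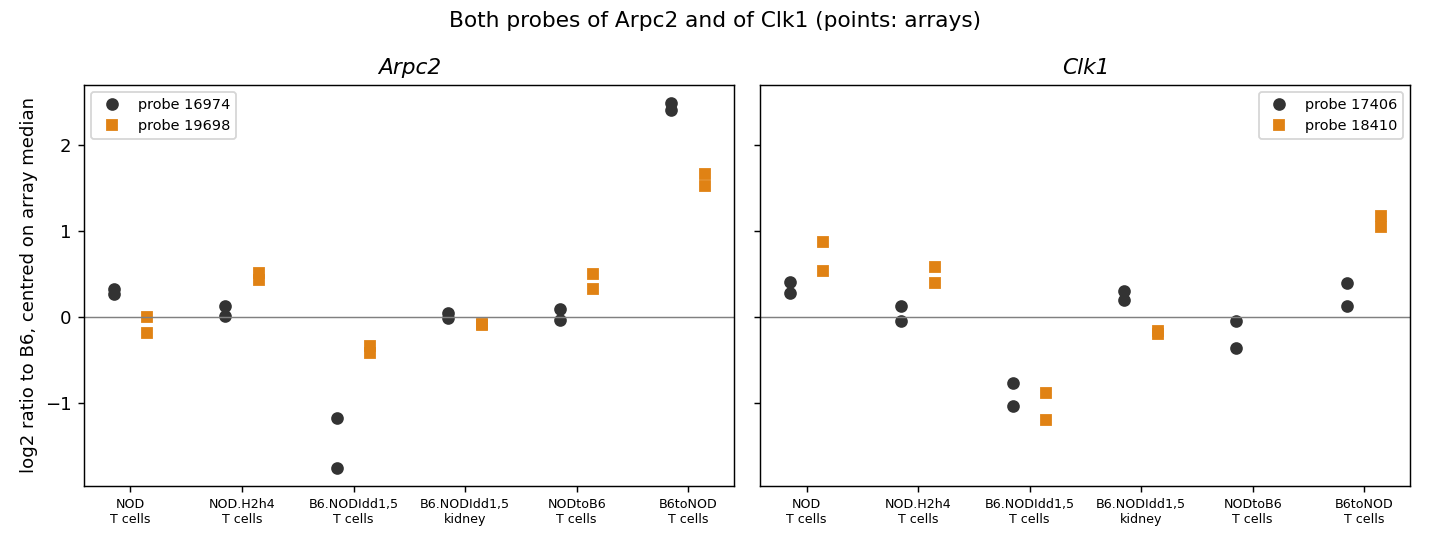
Log2 ratio to B6, centred on the array median (vertical axis), for each of the probes of Arpc2 and of Clk1 in the 6 groups (horizontal axis), with 1 point per array. Both probes of each gene lie below 0 in congenic T cells, from -0.34 to -1.75 for Arpc2 and from -0.77 to -1.20 for Clk1.

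Other subunits of the Arp2/3 complex went both ways in congenic T cells. Of 8 other subunits listed, 6 were measured, and 3 fell and 1 rose in congenic T cells (66.7%, beside 30.3% of all features), with a median of -0.46 beside -0.01 over all features. Arpc5 at -0.47 (adjusted p = 0.29) and Actr3 at 0.30 (adjusted p = 0.32) did not pass. Arpc5l, an isoform of the smallest subunit, fell by 1.28 on the log2 scale (-1.28 and -1.27, adjusted p = 4.3e-05). Arpc1a and Arpc1b, alternative forms of the large scaffold subunit, fell to -0.55 ± 0.10 (SE, adjusted p = 0.0057) and -0.46 ± 0.08 (SE, adjusted p = 0.0039). Arpc4, which pairs with Arpc2 in the core of the complex, rose to 0.47 ± 0.09 (SE, adjusted p = 0.0065). In kidney Arpc5l fell to -0.38 (adjusted p = 0.0069) and Arpc4 to -0.31 (adjusted p = 0.029), and the other 4 did not pass (33.3% passed, beside 33.5% of all features). T cells and kidney differed for Arpc5l by -0.90 ± 0.11 (SE, adjusted p = 0.0014), for Arpc1a by -0.61 ± 0.14 (SE, adjusted p = 0.022) and for Arpc4 by 0.78 ± 0.12 (SE, adjusted p = 0.0045). Without centring 1 of the 6 was higher in T cells and 0 were lower (9.73% of all features passed), so Arpc5l and Arpc1a lost these calls. For Arpc1b that difference was -0.24 ± 0.11 (SE, adjusted p = 0.16). In NOD.H2h4 T cells, where Arpc2 was at 0.27, 5 of the 6 fell (83.3%, beside 39.5% of all features) with a median of -0.60, and 3 fell without either NOD.H2h4 array. In B6toNOD T cells 4 of the 6 rose (66.7%, beside 51.4% of all features; 2 with arrays scaled), among them Actr3, the actin-related protein at the base of the new branch, at 2.58, and Arpc1b at 2.28. Without the second congenic T cell array Arpc1a (-0.39, adjusted p = 0.064) and Arpc4 (0.35, adjusted p = 0.074) lost their calls, which left 2 of the 6, and Arpc4 also did without centring (0.29, adjusted p = 0.15). The kidney calls of Arpc5l and Arpc4 were lost without either kidney array (adjusted p from 0.077 to 0.21), and that of Arpc4 also without either NOD.H2h4 array (adjusted p = 0.05, just above the threshold).

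Tuba4a, the microtubule gene, showed the lowest values of the set in both tissues of the congenic strain. It read -2.38 and -2.77 in congenic T cells, a mean of -2.57 ± 0.33 (SE of the fit, n = 2), which is 5.95-fold below B6, and 0.326% of features were lower. In congenic kidney it read -2.36 and -2.62, a mean of -2.49 ± 0.33 (SE) or 5.62-fold below B6, with 0.705% of features lower. The arrays of the tissues overlapped, and T cells minus kidney came to -0.08 ± 0.47 (SE). NOD.H2h4 T cells were also low at -1.42 and -2.65. The second of these lay inside the range of congenic T cells and just below both kidney arrays. NOD T cells were at -0.15 and 0.16, NODtoB6 T cells at -0.05 and 0.56 and B6toNOD T cells at -0.86 and 0.09. Neighbouring groups among those 3 overlapped, and all 3 lay above the congenic and NOD.H2h4 arrays. Tuba4a rests on a single probe with a larger fit error than Arpc2 or Clk1. The sign of its NOD mean of 0.01 was not stable, at -0.14 as deposited and -0.02 with arrays scaled.

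The tubulin list contained genes that went both ways in congenic T cells. Of 18 other tubulins 7 were measured and 6 could be tested there, of which 3 fell and 2 rose (83.3%, beside 30.3% of all features), with a median of -0.46. Tubb2b, a beta-tubulin best known from neurons, was at -0.87 ± 0.14 (SE, adjusted p = 0.0035), Tubb4b at -0.82 ± 0.07 (SE, adjusted p = 0.00021) and Tuba1b, a broadly expressed alpha-tubulin, at -0.77 ± 0.08 (SE, adjusted p = 0.00049). Tubb6 rose to 1.64 ± 0.21 (SE, adjusted p = 0.0011) and Tubb3, the neuronal beta-tubulin, to 0.36 ± 0.08 (SE, adjusted p = 0.011). Tubb5 was at -0.16 and did not pass. In kidney only Tubb3 passed among 6 tested (16.7%, beside 33.5% of all features), at 0.57 ± 0.08 (SE, adjusted p = 0.0014). T cells and kidney differed for Tubb4b by -0.93 (adjusted p = 0.00093), for Tuba1b by -0.71 (adjusted p = 0.0046) and for Tubb6 by 1.39 (adjusted p = 0.015). Without centring only 1 partner gene of all lists was lower in T cells (9.73% of all features passed). Tubb4b and Tuba1b therefore did not both keep these calls. In B6toNOD T cells 5 of 7 rose (71.4%, beside 51.4% of all features) with a median of 1.31. Among them were Tuba1b at 2.50 and Tubb4b at 2.14, whereas Tuba4a was at -0.39 there. Probes of tubulins can share target RNA because the genes are alike in sequence. Tubb3 lost its call without the first congenic T cell array (0.30, adjusted p = 0.10) and, as deposited, in T cells (0.18, adjusted p = 0.35) and in kidney (0.11, adjusted p = 0.54).

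Clk1, the splicing kinase, read -0.99 and -0.96 in congenic T cells, a mean of -0.97 ± 0.10 (SE of the fit, n = 2), or 1.96-fold below B6. Kidney of the same strain read 0.07 and 0.00, and T cells minus kidney came to -1.01 ± 0.14 (SE). The congenic T cell arrays were the lowest of all 12 and overlapped no other group. NODtoB6 T cells came next at -0.05 and -0.36, on probe 17406 alone because probe 18410 had no value there. Clk1 read 0.35 and 0.17 in NOD.H2h4 T cells, 0.47 and 0.58 in NOD T cells and 0.78 and 0.59 in B6toNOD T cells. Neighbouring groups in the order of Clk1 did not overlap, but the highest gap between means among those 3 was 0.26. The nearest arrays of NOD and B6toNOD T cells read 0.58 and 0.59. In NOD T cells Clk1 was higher than 95.4% of features. Both probes were low in congenic T cells, at -0.91 and -1.04 on average. They had opposite signs in kidney, 0.25 for probe 17406 and -0.18 for probe 18410, and in B6toNOD T cells they read 0.26 and 1.11. Without centring the means of NOD.H2h4 T cells (-0.54), kidney (-0.42) and B6toNOD T cells (-0.08) fell below 0, and the kidney mean was also below 0 (-0.04) with a running median along the probe order. The NOD mean was 0.92 with arrays scaled.

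The kinases related to Clk1 were low in the same cells. Of 17 CLK kinases and SR protein genes 15 were measured, and in congenic T cells 6 fell and the other 9 did not pass (40.0%, beside 30.3% of all features), with a median of -0.30. Clk3 was at -1.22 ± 0.12 (SE, adjusted p = 0.00036) and Clk4, the kinase most like Clk1, at -1.12 ± 0.20 (SE, adjusted p = 0.0056). Srsf5, an SR splicing factor, was at -1.15 ± 0.07 (SE, adjusted p = 6e-05). In kidney Clk3 was at -0.32 and Clk4 at -0.48, neither past the threshold. Srsf11 fell in both tissues, to -0.75 in T cells (adjusted p = 0.00026) and -0.71 in kidney (adjusted p = 0.00038), with a difference of -0.04 ± 0.09 (SE, adjusted p = 0.86). In kidney Srpk1, another kinase of SR proteins, rose to 0.25 (adjusted p = 0.029). T cells and kidney differed for Clk3 by -0.90 ± 0.17 (SE, adjusted p = 0.0089) and for Srsf5 by -0.99 ± 0.10 (SE, adjusted p = 0.00085). These calls were lost without centring, where 0 of the 15 passed for that difference (9.73% of all features). For Clk4 the difference of -0.64 ± 0.29 (SE) did not pass (adjusted p = 0.17). In B6toNOD T cells 7 of 15 rose and 3 fell (66.7%, beside 51.4% of all features), with Srsf1 at 1.89 and Srsf2 at 1.17. That count was 4 higher and 1 lower without the first B6toNOD array, and 3 higher with arrays scaled. The kidney call of Srpk1 was lost without either kidney array or either NOD.H2h4 array (adjusted p from 0.052 to 0.21), and its value was -0.20 without centring.

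Xrcc5, the DNA end-binding gene, had no value on either congenic T cell array, and 4.25% of all probes (881) lacked a value on both arrays of that group. In congenic kidney it read 0.97 and 1.48, a mean of 1.23 ± 0.14 (SE of the fit, n = 2), which is 2.34-fold above B6 and higher than 98.5% of features. That was the only group above 0. NOD T cells read -0.21 and -0.16. NOD.H2h4 T cells were lowest at -1.16 and -0.91, NODtoB6 T cells read -0.75 and -0.97 and B6toNOD T cells read -0.88 on both arrays. B6toNOD lay inside the NODtoB6 range, and the NOD.H2h4 arrays overlapped NODtoB6. The order therefore ran from kidney at the top through NOD T cells to the other T cells. Without centring the kidney mean was 0.77, that of NOD.H2h4 T cells -1.84 and that of B6toNOD T cells -1.64. With the running median NOD.H2h4 T cells were at -0.56, and with arrays scaled B6toNOD T cells were at -0.56.

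Xrcc6, the gene of the partner subunit in the Ku heterodimer, was low in both tissues of the congenic strain. It read -2.06 and -1.36 in congenic T cells, a mean of -1.71 ± 0.22 (SE, adjusted p = 0.0013), and -1.07 and -1.26 in kidney, a mean of -1.17 ± 0.22 (SE, adjusted p = 0.0060). In kidney Xrcc5 and Xrcc6 thus lay on opposite sides of B6. The Xrcc6 difference between the tissues was -0.54 ± 0.31 (SE, adjusted p = 0.28). Of 11 genes listed for non-homologous end joining 6 were measured. In congenic T cells 33.3% of them passed, beside 30.3% of all features, and in kidney 16.7%, beside 33.5%. In congenic T cells Paxx, a factor that binds Ku at the break, rose to 1.78 ± 0.48 (SE, adjusted p = 0.028) on arrays of 0.64 and 2.92, and Xrcc6 fell. In kidney Xrcc6 alone passed, and Prkdc, the catalytic kinase of the pathway, was near 0 at -0.18 in T cells and -0.15 in kidney. The Paxx call was lost without the second congenic T cell array (0.64, adjusted p = 0.25). The kidney call of Xrcc6 was lost without either kidney array (adjusted p = 0.052 and 0.079).

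Atic, the purine gene, was lowest in NOD T cells, at -4.79 and -2.51, a mean of -3.65 ± 0.52 (SE of the fit, n = 2) or 12.6-fold below B6. Only 0.00628% of features in that group were lower. The arrays differed by more than those of any other gene and group of the set, and the mean was -6.65 with arrays scaled to a common spread. Congenic T cells came next at -1.73 and -2.20, a mean of -1.97 ± 0.52 (SE), 3.91-fold below B6, with 0.911% of features lower. These 2 groups overlapped neither each other nor the rest. NOD.H2h4 T cells read -0.57 and -1.08, B6toNOD T cells -0.12 and -0.82 and NODtoB6 T cells -0.50 and 0.28, and these arrays overlapped in that order. Congenic kidney gave no value for Atic on either array, as did 2.19% of all probes. Atic, read by a single probe, was lowest in NOD T cells and congenic T cells. Its mean was -0.83 in NOD.H2h4 T cells and, in the assumed direction, -0.11 in NODtoB6 T cells. The cause of these differences was not tested. Without centring the means of NOD.H2h4 and B6toNOD T cells were -1.63 and -1.23.

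The purine synthesis genes passed in congenic T cells at a share near that of all features. Of 18 genes listed 14 were measured, and 4 fell and 1 rose there (35.7%, beside 30.3% of all features), with a median of -0.34. Prps2 and Prps1, synthetases of the ribose phosphate precursor, were at -1.83 ± 0.41 (SE, adjusted p = 0.018) and -0.78 ± 0.14 (SE, adjusted p = 0.0047). Paics, which acts some steps before Atic, was at -0.93 ± 0.11 (SE, adjusted p = 0.00099). Aprt, which salvages adenine instead, rose to 2.07 ± 0.35 (SE, adjusted p = 0.0044) with 1.14 on the second array. Ppat, the committing enzyme of the pathway, was at -2.29 in T cells and did not pass, and it fell to -2.99 ± 0.82 (SE, adjusted p = 0.027) in kidney on arrays of -0.99 and -5.00. Also in kidney Mthfd2, a mitochondrial folate enzyme, fell to -1.64 (adjusted p = 0.00025), Prps1 fell to -0.56 (adjusted p = 0.017) and Adsl, the step just before Atic, rose to 0.88 (adjusted p = 0.00030). T cells and kidney differed for Aprt by 2.56 ± 0.50 (SE, adjusted p = 0.011), for Paics by -1.16 ± 0.16 (SE, adjusted p = 0.0026), for Mthfd2 by 1.21 (adjusted p = 0.0023) and for Adsl by -0.75 (adjusted p = 0.0025). Without centring only 1 partner gene of all lists was lower in T cells (9.73% of all features passed). Paics and Adsl therefore did not both keep these calls. In NOD T cells, where Atic was lowest, 1 of the 14 rose (12.2% of all features passed) and the median was 0.07. Without the first congenic T cell array Prps2 lost its call (-1.33, adjusted p = 0.16), Aprt was at 1.14, Prps1 at -0.48, and 3 of the 14 passed. The kidney call of Ppat was lost without the second kidney array (-0.99, adjusted p = 0.28), and that of Prps1 without either (adjusted p = 0.16 and 0.10).

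**Figure D3:**
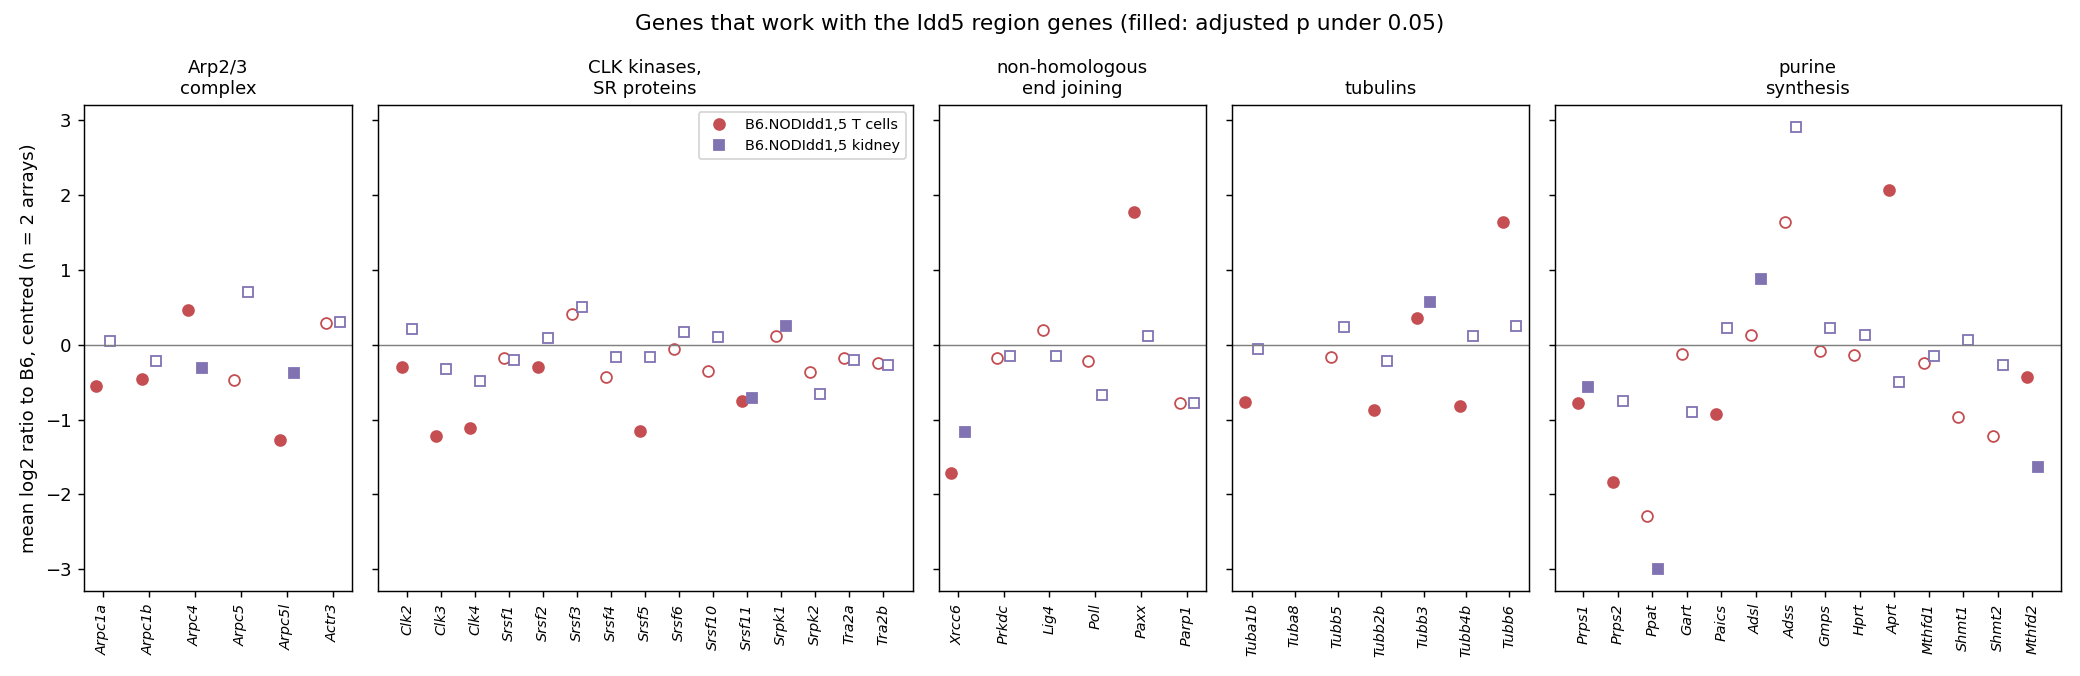
Mean log2 ratio to B6, centred on the array median (vertical axis), of the measured genes of the 5 partner lists (horizontal axis) in congenic T cells (circles) and congenic kidney (squares), 2 arrays each, filled where the adjusted p was under 0.05. Clk3, Clk4 and Srsf5 lie at -1.12 or lower in T cells, and Tubb6 and Aprt lie at 1.64 and 2.07.

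Over all 5 lists 48 partner genes were measured. In congenic T cells 17 fell and 5 rose of 47 tested (46.8%), beside 30.3% of all features, and in kidney 7 fell and 3 rose of 47 (21.3%), beside 33.5%. T cells and kidney differed for 14 of 47, 10 lower and 4 higher in T cells (29.8%, beside 21.0% of all features), with a median difference of -0.24 beside -0.12. That comparison gave 5 of 47 without centring, 1 lower and 4 higher (9.73% of all features). Elsewhere the partner genes passed as 2 of 48 in NOD T cells (4.17%, beside 12.2% of all features) and 19 of 48 in NOD.H2h4 T cells (39.6%, beside 39.5%). They passed as 14 of 48 in NODtoB6 T cells (29.2%, beside 26.8%) and 27 of 46 in B6toNOD T cells (58.7%, beside 51.4%). In NOD.H2h4 T cells 14 fell and 5 rose, and in B6toNOD T cells 20 rose and 7 fell. Without centring the splits were 36 lower in NOD.H2h4 T cells, 18 lower and 1 higher in kidney, 9 lower and 1 higher in NODtoB6 T cells, and 22 lower and 10 higher in B6toNOD T cells. Of all features 63.6%, 32.4%, 22.8% and 65.9% passed in those groups without centring. Scaling the arrays gave 12 higher and 1 lower in B6toNOD T cells (31.6% of all features) and 18 partner genes in NOD T cells (31.1%). Without either array of the group itself, fewer partner genes passed in kidney and in NOD.H2h4, NODtoB6 and NOD T cells. The share of all features that passed fell in those groups too. With a single congenic array left out the NOD count was 1 (11.1% of all features for a T cell array and 7.73% for a kidney array).

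The genes that lie between the 5 passed in the congenic groups at shares below those of all features, with medians near 0 after centring. The span is set by Clk1 and Tuba4a, and the limits of the NOD segment were not used. Of 67 measured genes from Clk1 to Tuba4a, 60 were neighbours other than the 5 and the costimulatory receptors. In congenic T cells 5 of 52 rose and 6 fell (21.2% of those tested, beside 30.3% of all features, 14.4% higher and 15.9% lower), with a median of -0.00. In congenic kidney 13 of 55 rose and 4 fell (30.9%, beside 33.5%, 22.4% higher and 11.1% lower), with a median of 0.07. Without centring the splits were 3 higher and 9 lower in T cells (25.6% of all features passed) and 12 lower in kidney (32.4%). The direction in kidney therefore depended on centring. With the running median 10 were higher and 6 lower in kidney (33.3% of all features). T cells and kidney differed for 10 of 52 neighbours, 3 higher and 7 lower in T cells (19.2%, beside 21.0%, 6.90% higher and 14.1% lower), with a median difference of -0.18 beside -0.12 over all features. Without either kidney array fewer neighbours passed in kidney and in T cells minus kidney, and the share of all features that passed fell too.

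**Figure D4:**
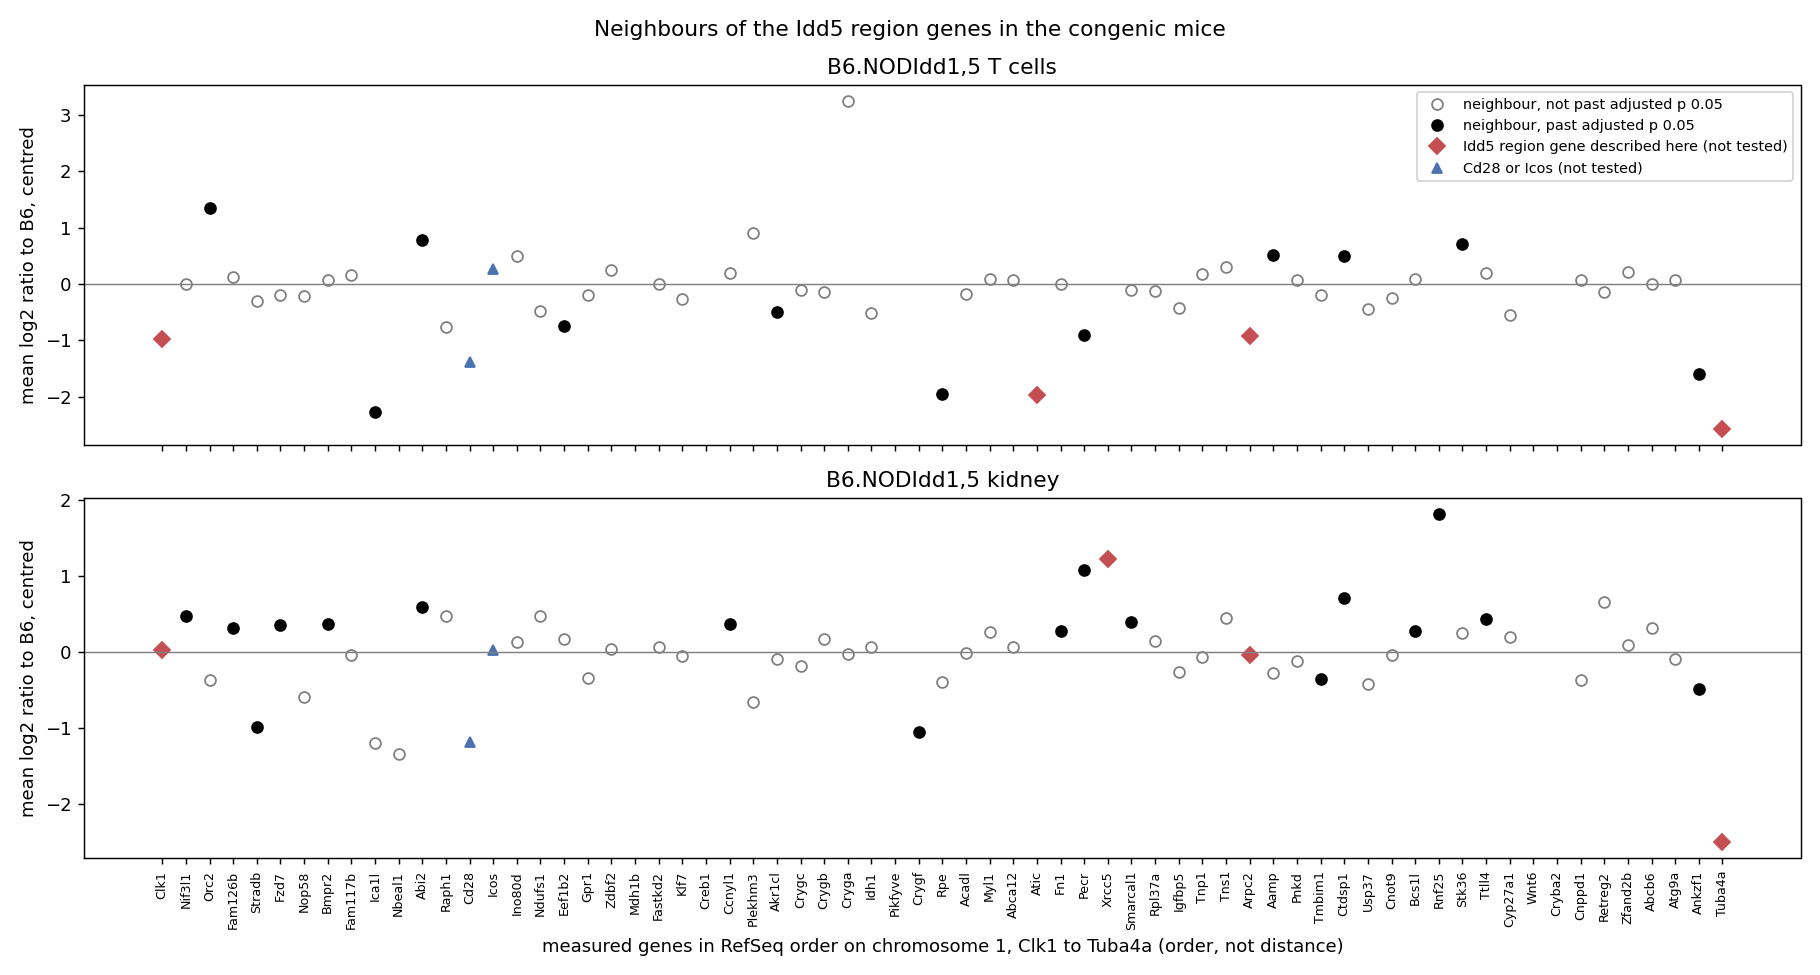
Mean log2 ratio to B6, centred on the array median (vertical axis), of the measured genes from Clk1 to Tuba4a in their RefSeq order (horizontal axis) in congenic T cells and congenic kidney, 2 arrays each. Filled circles are neighbours past an adjusted p of 0.05, diamonds the 5 genes and triangles Cd28 and Icos, and genes past the threshold lie on both sides of 0.

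Among the neighbours Ankzf1, which releases stalled peptides from ribosomes, Eef1b2, a translation elongation factor, and Ica1l were low in congenic T cells. Ankzf1 fell to -1.60 ± 0.14 (SE, adjusted p = 0.00028), Eef1b2 to -0.75 ± 0.07 (SE, adjusted p = 0.00026) and Ica1l to -2.27 ± 0.41 (SE, adjusted p = 0.0057). Rpe, an enzyme of the pentose phosphate pathway, fell to -1.94 on arrays of -3.29 and -0.60 (adjusted p = 0.041), and Pecr, a peroxisomal reductase, to -0.91 (adjusted p = 0.026). Orc2, a subunit of the origin recognition complex, rose to 1.35 on arrays of 2.06 and 0.66 (adjusted p = 0.011). Abi2, a component of the WAVE complex that activates Arp2/3, rose to 0.78 ± 0.11 (SE, adjusted p = 0.0019), Stk36 to 0.71 (adjusted p = 0.0036), Aamp to 0.52 (adjusted p = 0.013) and Ctdsp1, a phosphatase, to 0.49 (adjusted p = 0.0015). Ankzf1 lies next to Tuba4a among the measured genes, and its kidney value of -0.49 (adjusted p = 0.037) differed from T cells by -1.11 (adjusted p = 0.0086). Aamp follows Arpc2 among the measured genes, and it was above 0 in T cells where Arpc2 was below. Without the first congenic T cell array Orc2 (0.66, adjusted p = 0.063), Rpe (-0.60, adjusted p = 0.44), Pecr (-1.09, adjusted p = 0.073) and Aamp (0.46, adjusted p = 0.11) lost their calls. Without the second, Ica1l (-1.45, adjusted p = 0.055), Pecr (-0.73, adjusted p = 0.20) and Aamp (0.58, adjusted p = 0.054) did. Rpe also lost its call without single NOD, NOD.H2h4 or kidney arrays (adjusted p from 0.058 to 0.067) and with a replicate block (adjusted p = 0.059), and Aamp and Ctdsp1 lost theirs without centring (adjusted p = 0.15 and 0.11).

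In congenic kidney Pecr went the other way, at 1.08 ± 0.24 (SE, adjusted p = 0.012), and T cells minus kidney came to -1.99 ± 0.34 (SE, adjusted p = 0.0063). Abi2 (0.60, adjusted p = 0.0056) and Ctdsp1 (0.71, adjusted p = 0.00038) rose in kidney as they had in T cells, and their tissue differences did not pass (adjusted p = 0.47 and 0.15). Rnf25, a ubiquitin ligase, rose to 1.81 on arrays of 0.69 and 2.93 (adjusted p = 0.025), and Nif3l1 to 0.48 (adjusted p = 0.0063). Stradb, a pseudokinase, fell to -0.98 ± 0.13 (SE, adjusted p = 0.0012), Crygf, a lens crystallin, to -1.05 (adjusted p = 0.025) and Tmbim1 to -0.36 (adjusted p = 0.046). Stradb differed between the tissues by 0.69 (adjusted p = 0.031), Orc2 by 1.72 (adjusted p = 0.024), Eef1b2 by -0.93 (adjusted p = 0.00080) and Aamp by 0.79 (adjusted p = 0.013). The tissue differences of Stradb, Orc2 and Aamp lost their calls without either kidney array. Without either kidney array Pecr (adjusted p = 0.10), Abi2 (0.063 and 0.068), Nif3l1 (0.075 and 0.070), Crygf (0.16), Tmbim1 (0.33 and 0.15) and Ankzf1 (0.18 and 0.24) lost their adjusted calls, and Rnf25 lost its call without the second (0.69, adjusted p = 0.074). Tmbim1 and Ankzf1 also lost theirs without single arrays of other groups (adjusted p from 0.056 to 0.072) and with a replicate block (adjusted p = 0.059 and 0.057). Without centring Abi2 (adjusted p = 0.58), Ctdsp1 (0.15), Nif3l1 (0.90), Pecr (0.065) and Rnf25 (0.055) did not pass, nor did Crygf (0.11) and Tmbim1 (0.063) with arrays scaled.

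Neighbours also passed in each of the other groups. In NOD T cells 3 of 60 passed (5.0%, beside 12.2% of all features, 9.79% higher and 2.46% lower), namely Abca12, a lipid transporter, at 0.71 (adjusted p = 0.011), Fn1, fibronectin, at 0.51 (adjusted p = 0.010) and Rpl37a, a ribosomal protein, at -0.85 (adjusted p = 0.0016). The count was 18 with arrays scaled, where 31.1% of all features passed. In NOD.H2h4 T cells 12 of 60 rose and 13 fell (41.7%, beside 39.5%, 24.1% higher and 15.4% lower; 15 passed without either NOD.H2h4 array), with Pikfyve, a phosphoinositide kinase, at 1.27 and Creb1, a transcription factor, at 1.25 at the top and Wnt6, a secreted ligand, at -3.04 at the bottom. In NODtoB6 T cells 10 of 55 rose and 7 fell (30.9%, beside 26.8%, 13.8% higher and 13.1% lower; 7 passed without the second NODtoB6 array), with Stradb at -1.71 (adjusted p = 0.00017) and Abcb6, a porphyrin transporter, at 1.14 (adjusted p = 0.0011). In B6toNOD T cells 16 of 50 rose and 6 fell (44.0%, beside 51.4%, 28.5% higher and 22.9% lower), with Ccnyl1, a cyclin, at 1.52 (adjusted p = 7.4e-06) and Pecr at -2.66 (adjusted p = 8.9e-05). Without centring the splits were 1 higher and 47 lower in NOD.H2h4, 3 higher and 10 lower in NODtoB6 and 2 higher and 28 lower in B6toNOD T cells. Of all features 63.6%, 22.8% and 65.9% passed in those groups without centring. Abca12 (adjusted p = 0.067 and 0.15) and Fn1 (0.066 and 0.14) lost their adjusted calls without the first or the second NOD array, and Wnt6 without the second NOD.H2h4 array (-1.85, adjusted p = 0.12) and with arrays scaled (adjusted p = 0.069). Without centring Abca12 (adjusted p = 0.12), Fn1 (0.25) and Creb1 (0.093) lost theirs, and Creb1 also did with the ceiling value of the files kept instead of read as missing (0.80).

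**Figure D5:**
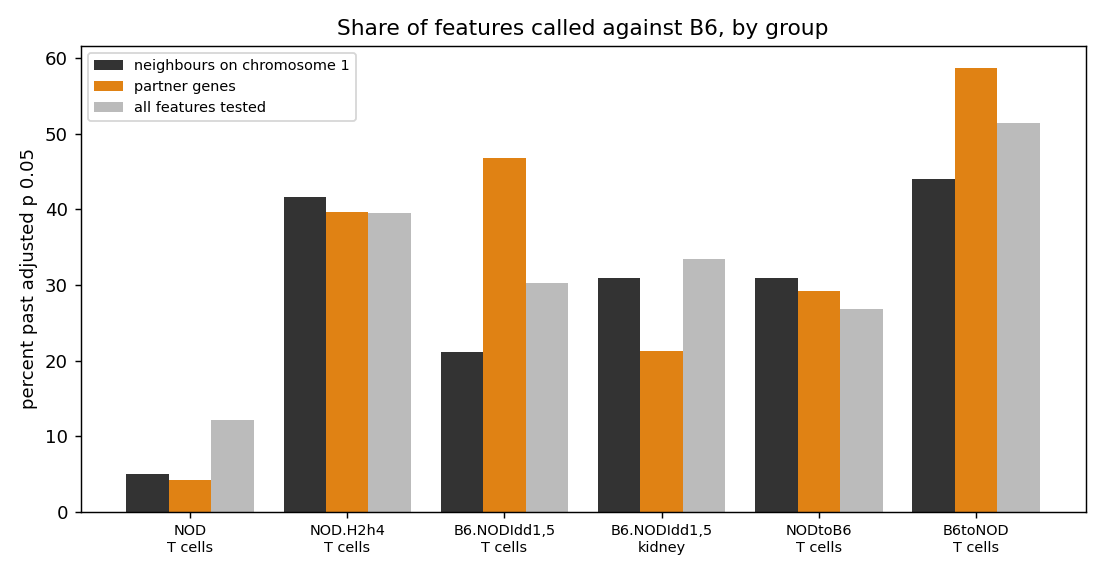
Percent of genes past an adjusted p of 0.05 against B6 (vertical axis) among neighbours, among partner genes and among all features tested (bars) in the 6 groups (horizontal axis). In congenic T cells the bars stand at 21.2%, 46.8% and 30.3%.

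The costimulatory receptor Cd28, which lies between Clk1 and Atic, read -1.46 and -1.31 in congenic T cells and -1.11 and -1.24 in congenic kidney, while Icos read 0.28 and 0.25 in T cells and 0.09 and -0.03 in kidney.

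Each of the 5 genes was also set against 6913 named genes with a value on all 12 arrays, to find those with the most similar profile. The Pearson correlations below describe arrays that share groups, B6 reference and processing, and the closest of so many candidates is high by selection. For Arpc2 the nearest were Ywhab, an adaptor that binds phosphorylated proteins (r = 0.993, n = 12), Rpl28 (0.976) and Rrp12 (0.976). Ywhab was at -0.62 in congenic T cells and 1.41 in B6toNOD T cells, the same extremes as Arpc2. For Clk1 they were Satb1, a chromatin organiser of thymocytes (r = 0.962, n = 12), Stx5a (0.943) and Smdt1 (0.935), and these were at -0.87, -0.03 and -1.11 in congenic T cells. For Tuba4a the nearest was Cd28 (r = 0.945, n = 12), followed by Phtf1 (0.933) and Bpgm (0.919). Xrcc5 and Atic could be compared over 10 arrays each. Xrcc5 was nearest to Cfdp1 (r = 0.984), Mapkapk5 (0.963) and Psip1 (0.950), all highest in congenic kidney, at 0.54, 0.56 and 0.72. Atic had the lowest correlations, with Spic (r = 0.881), Eef2kmt (0.878) and Slc39a9 (0.876), and its profile rests heavily on the low first NOD array.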

How the data were processed

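Log2 ratios of 2-colour arrays were deposited by the authors as 1 value per probe and array, and how these log2 values were normalized was not given in the sources used here. Per the labels, Cy5 held the experimental sample and Cy3 held B6 on the strain arrays. The value 16.60964, found in 146 cells, was read as missing. Of 20736 probes 13033 carried 1 gene symbol, 312 several and 7391 none in the platform annotation; 12850 were renamed through RefSeq (GRCm38.p6), which was used for names, gene order and promoter sequences. Probes of a gene were averaged, giving 16411 features, and each array was centred on its feature median. limma 3.58.1 (R 4.3.3) fitted the 6 group means over 12 arrays with 1 shared spread, and p-values were Benjamini-Hochberg adjusted over all features with a value on every array compared, at a threshold of 0.05. The script was tested on simulated data. The members and lists were chosen with earlier results of these data known. Neighbours were named as up to 5 each way per group, partners as up to 3 each way per list in the congenic groups, by size among those past the threshold with both arrays of that sign, and likeness as the 3 highest correlations. Replicate numbers did not pair the samples: correlations of S1 minus S2 between groups ran from -0.036 to 0.022 over 15 pairs of groups. Alternatives were no centring, scaling, a running median over 501 probes, other rules for missing values and probes, each group fitted alone, a replicate block, marrow transfer arrays turned and each array left out. Array number limits the precision throughout.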

Additional observations from a re-analysis of the deposited data

Results flagged for a closer look

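The results below stood out because the effect against B6 differed between T cells and kidney of the congenic strain in limma's test of that difference, with p-values adjusted over all 14486 features tested, of which 21.0% passed. Values are congenic T cells minus congenic kidney on the log2 scale. Without centring 9.73% of all features passed, with 7 neighbours (4 higher and 3 lower) and 5 partner genes (4 higher and 1 lower). Clk3, Srsf5, Arpc5l and Arpc1a were not among them, and at most 1 of Tubb4b, Tuba1b, Paics and Adsl was. Pecr, Ankzf1, Eef1b2 and Nif3l1 cannot all have been among the 3 lower neighbours. Among the neighbours on chromosome 1 the difference was below 0 for Pecr (-1.99), Ankzf1 (-1.11), Eef1b2 (-0.93) and Nif3l1 (-0.48). It was above 0 for Orc2 (1.72), Aamp (0.79) and Stradb (0.69), and these calls were lost without either kidney array. For the Arp2/3 subunits it was -0.90 for Arpc5l (-0.895), -0.61 for Arpc1a (-0.605) and 0.78 for Arpc4. The splicing genes Clk3 and Srsf5 differed by -0.90 (-0.899) and -0.99. The tubulins Tubb4b and Tuba1b differed by -0.93 and -0.71, and Tubb6 by 1.39. In purine synthesis Paics and Adsl differed by -1.16 and -0.75 (-0.745), and Aprt and Mthfd2 by 2.56 and 1.21.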

How the results depend on the processing

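With 2 arrays a group, counts rested on the shared spread. Fitting each group alone gave 8 of 60 neighbours in NOD T cells and 33 in congenic kidney (16.7% and 62.1% of all features). It gave 0 by limma in congenic, NODtoB6 and B6toNOD T cells, where 0% of all features passed as well. Among the neighbours 8, 16 and 16 had an unadjusted limma p under 0.05 in those groups. For partner genes it gave 23 in kidney and 0 in those 3 T cell groups, with 21, 18 and 18 at an unadjusted p under 0.05. Of 80 named gene and group results 53 lost their call when each group was fitted alone, and 33 kept it under every other setting (marrow arrays not turned). Without centring the neighbours passed as 1 in NOD and 48 in NOD.H2h4 T cells (1.2% and 63.6% of all features). The partners passed as 0 in NOD T cells by limma (6 at an unadjusted p under 0.05) and 36 in NOD.H2h4 T cells. They passed as 19 in kidney (32.4% of all features) and 5 for T cells minus kidney (9.73%). Scaling gave 18 neighbours and 18 partners in NOD T cells (31.1% of all features) and 13 partners in B6toNOD T cells (31.6%). The running median gave 4 partners in NOD T cells (10.3% of all features). Probes tested alone gave 5 neighbours in NOD T cells, and 5, 29, 16 and 24 partners in NOD, NOD.H2h4, kidney and NODtoB6. Of all probes tested 13.0%, 41.3%, 35.2% and 28.1% passed in those groups. The cause of these shifts was not tested.

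Leaving out 1 array at a time gave neighbour counts of 1 to 5 (NOD), 15 to 27 (NOD.H2h4), 9 to 14 (congenic T cells), 4 to 21 (kidney), 7 to 18 (NODtoB6), 21 to 24 (B6toNOD) and 2 to 12 (T cells minus kidney). Partner counts ran from 1 to 3, 12 to 23, 18 to 26, 5 to 14, 9 to 20, 20 to 29 and 8 to 16 in the same order. The share of all features that passed also fell whenever an array of the group itself was left out. The replicate block moved the partner count in NOD T cells from 2 to 1 and ended 5 named calls.

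Without centring Fzd7 in NOD.H2h4 T cells turned to -0.11 and Srpk1 in kidney to -0.20. With the marrow transfer arrays turned, NODtoB6 values became -1.14 (Abcb6), -0.97 (Crygb), -1.02 (Cyp27a1), 0.63 (Fam126b), -0.94 (Myl1), 1.05 (Orc2), 1.05 (Pecr), -1.43 (Retreg2), 1.71 (Stradb) and 3.53 (Wnt6). B6toNOD values became 1.24 (Ankzf1), -0.98 (Bcs1l), -1.52 (Ccnyl1), -2.46 (Crygf), 1.05 (Gpr1), -1.31 (Idh1), 2.66 (Pecr), 0.85 (Pnkd), 1.09 (Usp37) and -1.42 (Zfand2b). Of 28 means of the 5 genes, 7 changed sign without centring, 1 with scaling, 2 with the running median and 10 with those arrays turned. Without centring 20 moved by more than the SD of their arrays. Leaving out the second NOD, first kidney, first NODtoB6, second NODtoB6 or first B6toNOD array changed the sign of 1 mean each.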
